A study of Mus musculus with 4 samples.

Results

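Zfp is the mouse prefix for zinc finger protein, and the genes described here are those whose symbol is Zfp followed by 3 digits. They were taken from a table of read counts of natural killer T (NKT) cells, T lymphocytes with a semi-invariant receptor for lipids held by CD1d. A gene was a member when at least 10 counts were found in at least 2 of the 4 libraries, which 216 of 228 symbols of this form did, among 12020 genes in the table. The members were compared between 2 libraries of resting cells and 2 libraries of cells stimulated through the receptor, called tetramer libraries below. Per the labels, all cells were sorted by high GFP from Va14 Tg.cxcr6gfp/+ mice, which carry a receptor transgene and GFP in place of 1 Cxcr6 copy, on C57BL/6, aged 10-12w. The stimulus was plate-bound mouse CD1d tetramer loaded with the lipid PBS57, and the resting cells received none. The sources used here do not give the culture time. They also do not say whether libraries of 1 group stem from different mice, and p-values then measure the variation among these libraries alone, possibly technical. The labels name liver as the tissue, whereas the sorting protocol speaks of livers or spleens and the RNA protocol of islets.

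Most Zfp genes encode proteins with tandem C2H2 zinc fingers, each a short fold around a zinc ion that can contact a few bases of DNA. Many also carry a KRAB domain, which recruits the corepressor Trim28 and, through it, the methyltransferase Setdb1 and HP1 proteins, and such proteins are best known for silencing retroelements. Other members have no KRAB domain and act as activators, RNA-binding proteins or ribosome assembly factors. KRAB zinc finger genes arose by repeated duplication and often lie side by side, so their transcripts can share sequence. Of the 216 members, 215 had a coding transcript in GENCODE M21. In its translation, 107 showed a KRAB-like stretch and 108 did not. The number of C2H2 finger matches had a median of 9 and reached 36, with a median of 11 in KRAB-like members and 7 in the others, and 5 members had no match.

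Each library held between 4168438 and 5495521 counts. Levels are given as CPM, read counts scaled to TMM-adjusted library sizes, and each log2 fold change (tetramer minus resting on the log2 scale) carries ± its SE. A gene is called when its adjusted p from edgeR's quasi-likelihood test over all 11312 genes tested is below 0.05. All 10 NKT and T cell markers were in the table, at a summed 4198 and 3812 CPM in resting and 3580 and 4308 CPM in tetramer libraries. Among them Klrb1c, which encodes the NK cell receptor that marks many NKT cells, fell from 114 and 174 to 2.86 and 13.6 CPM. Cxcr6, the locus of the GFP used for sorting, fell from 1617 and 1102 to 414 and 718 CPM. Both were called lower by edgeR, and the other markers were not called. Zbtb16, Cd3d, Thy1, Cd3e, Cd28, Tbx21 and Il2rb had log2 fold changes from 0.09 to 0.96, and Cd3g had -0.01. Hormone genes of pancreatic islets were present as well, with 6 of 6 islet markers summing to 267 and 980 CPM in resting libraries 4 and 5 and 237 and 429 CPM in tetramer libraries 4 and 5. Of 8 hepatocyte markers 3 were in the table (28.3 to 52.4 CPM summed), and Alb was not among them. The table holds no count below 1, so a marker missing from it may still have had reads in some libraries. Of 4 neutrophil markers 2 were in it, at 19.5 and 18 CPM in resting against 1.84 and 3.24 CPM in tetramer libraries. Of 6 macrophage markers 3 were in it, at 20.3 and 25.6 against 8.18 and 9.71 CPM. All 4 B cell markers were in it, at 21.3 and 29.7 against 13.3 and 16.6 CPM. Of 3 endothelial markers only Pecam1 was in it, at 75 and 28.8 against 10.2 and 15.8 CPM. The part of other cells in the results below was not tested, and in such bulk samples fewer cells of a type and less RNA per cell cannot be told apart. With all libraries, 1620 genes were called higher and 1366 lower. Fewer were called when either tetramer library was left out, and fewest without library 4. Such fits leave a single tetramer library, and whether the values of the library left out or the smaller number of libraries cost the calls was not tested.

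Zfp transcripts together made up a smaller part of the counts after stimulation, while most single members passed no threshold. Of all counts, members made up 0.821% (library 4) and 0.711% (library 5) at rest, against 0.372% and 0.440% after stimulation. On the TMM scale their summed level was 7093 and 6732 CPM at rest and 4185 and 4810 CPM after stimulation, so both tetramer libraries lay below both resting libraries. The expression filter passed 215 of the 216 members, all but Zfp418. Of these, 33 were called lower (15.3%), 10 higher (4.65%) and 172 in neither direction. Over all genes tested, 26.4% were called in either direction, 12.1% lower and 14.3% higher. With TMM scaling the share of lower calls was thus near that of all genes, and the share of higher calls was below it. Members also had lower counts, with a median of 63.5 per library against 108.75 over all genes tested. The part of this in the calls was not tested.

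The median log2 fold change of the tested members was -0.41, with quartiles of -1.01 and 0.31, and that of all genes tested was -0.06. A negative fold change was seen in 142 members and a positive one in 73, against 5884 and 5428 of all genes tested. Both tetramer libraries lay below both resting libraries in 96 members (44.7%) and above them in 37 (17.2%), against 33.7% and 31.6% of all genes tested. No set test was made, so these shares are a description. With library totals in place of TMM factors the median of all genes moved to -0.35 and that of the members to -0.70, and 61 members were called lower and 5 higher, where 19.9% of all genes were lower and 10.5% higher. Without tetramer library 4, 6 members were lower and 1 higher (2.68% and 5.33% of all genes), and without tetramer library 5 there were 12 and 3 (5.75% and 9.89%).

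**Figure D1:**
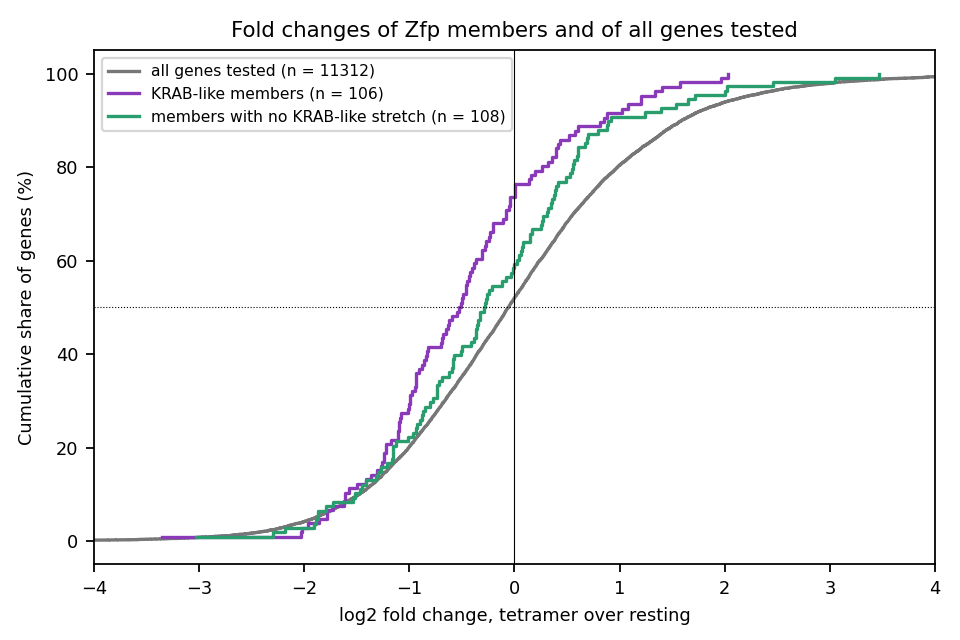
Cumulative share of genes (percent) against log2 fold change (tetramer over resting) for all 11312 genes tested, the 106 tested KRAB-like members and the 108 members with no KRAB-like stretch. The curves of the members lie above and to the left of that of all genes over most of the range, with medians of -0.52 and -0.29 against -0.06.

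Members were also counted by class. Of 106 tested KRAB-like members 17 were lower (16%) and 3 higher (2.83%), with a median of -0.52. Of the 108 without such a stretch 16 were lower (14.8%) and 7 higher (6.48%), with a median of -0.29. Without resting library 4, where 13.1% of all genes were higher and 12.7% lower, 7 KRAB-like members were called higher. Without tetramer library 4, 1 KRAB-like member and 5 of the others were called lower. The difference between the classes was not tested. KRAB-like members had a median count per library of 48.6, the others one of 82.4, and the part of counts in these calls was not tested either. By finger number, 12 of 38 members with 0 to 4 fingers were lower (31.6%) and 2 higher, and 12 of 73 with 5 to 9 fingers were lower (16.4%) and 5 higher. Of 70 with 10 to 14 fingers 5 were lower (7.14%) and 3 higher, and of 33 with 15 or more 4 were lower (12.1%) and 0 higher. Over all genes, 12.1% were lower and 14.3% higher. The medians of the 4 classes were -0.50, -0.31, -0.51 and -0.46. The median count per library was 153 in the class with the fewest fingers, and 58, 49.5 and 63.5 in the others. Its part in the calls was not tested.

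Short stretches before the start sites of 4 called members are shown as examples. All 4 members had 1 start site listed and held any of the 5 motifs searched. The choice followed the size of the change in each direction but did not cover every chromosome. Members with a larger change, such as Zfp438 with a larger fall than Zfp512, are therefore not all shown. Each stretch is the 250 bases before the start listed by RefSeq (GRCm38.p6), 5′ to 3′ on the gene's strand, with motif matches in capitals. Zfp945 (chr17:22867135-22867384, minus strand) and Zfp512 (chr5:31452186-31452435, plus strand) were called lower. Zfp324 (chr7:12965588-12965837, plus strand) and Zfp213 (chr17:23564227-23564476, minus strand) were called higher.
Zfp945: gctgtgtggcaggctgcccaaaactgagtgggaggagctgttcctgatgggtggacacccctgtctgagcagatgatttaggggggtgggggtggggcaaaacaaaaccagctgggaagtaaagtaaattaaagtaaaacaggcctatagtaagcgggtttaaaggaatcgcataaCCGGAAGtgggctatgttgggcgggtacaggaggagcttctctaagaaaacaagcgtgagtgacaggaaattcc
Zfp512: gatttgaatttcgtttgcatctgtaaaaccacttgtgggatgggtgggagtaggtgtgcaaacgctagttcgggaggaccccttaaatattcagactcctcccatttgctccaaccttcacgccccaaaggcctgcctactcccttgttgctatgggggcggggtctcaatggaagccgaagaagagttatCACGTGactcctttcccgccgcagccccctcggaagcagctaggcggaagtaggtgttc
Zfp324: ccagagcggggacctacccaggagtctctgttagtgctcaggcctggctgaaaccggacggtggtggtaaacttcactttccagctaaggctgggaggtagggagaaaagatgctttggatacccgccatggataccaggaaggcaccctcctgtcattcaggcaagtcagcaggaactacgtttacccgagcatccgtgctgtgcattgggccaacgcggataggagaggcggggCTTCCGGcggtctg
Zfp213: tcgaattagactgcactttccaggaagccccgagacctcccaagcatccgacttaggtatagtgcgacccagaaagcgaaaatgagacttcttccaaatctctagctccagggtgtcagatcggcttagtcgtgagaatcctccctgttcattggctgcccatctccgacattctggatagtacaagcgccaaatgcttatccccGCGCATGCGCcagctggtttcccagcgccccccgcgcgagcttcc
The motifs, searched on both strands and none containing another, were the E-box CACGTG, the ETS-type CCGGAAG, the NRF1 palindrome (capitals in Zfp213), the CRE-type TGACGTCA and a YY1 motif. CCGGAAG stood before both a gene that was lower, Zfp945, and a gene that was higher, Zfp324, where it lies on the other strand. It was found in 16.6% of the 181 members with a listed start, in 14.8% of 8592 genes tested and in 7.05% of all 27025 starts. It was found before 3 of 24 members called lower and 2 of 8 called higher. CACGTG was found in 7.73% of members, 8.55% of genes tested and 6.05% of all starts, the NRF1 palindrome in 3.31%, 1.63% and 0.781%, and TGACGTCA in 4.42%, 2.92% and 1.62%. The YY1 motif was found in 0.552%, 0.524% and 0.218%. A match is a description and not a bound site.

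Among members that rose, Zfp593 had the highest level after stimulation. Its product, the counterpart of yeast Bud20, belongs to the set of factors that accompany the large ribosomal subunit out of the nucleus. Zfp593 was at 4.56 and 6.20 CPM in resting libraries 4 and 5 and 58.3 and 30.7 CPM in tetramer libraries 4 and 5. The groups did not overlap, and both tetramer libraries were well above both resting ones. This was an 8.25-fold rise (log2 fold change 3.04 ± 0.52, edgeR adjusted p = 0.000113), with a range of 2.53 to 3.44 when single libraries were left out. It was the only member called higher in every alternative tried.

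Zfp296, known as a partner of pluripotency factors in stem cells, was near the floor of the table at rest. Like Zfp428, it met the member rule only through the tetramer pair, so its ratio and call are not independent of that rule. Its counts were 3 and 1 at rest and 30 and 18 after stimulation, and the ratio after scaling to library size was 11.6 (95% Clopper-Pearson interval 4.25 to 44.3, for counting error only). Per library it was at 0.622 and 0.214 CPM in resting libraries 4 and 5 and 6.14 and 3.64 CPM in tetramer libraries 4 and 5. Its call (edgeR adjusted p = 0.0035) was lost without tetramer library 4 (adjusted p = 0.142). Zfp428 was also low at rest, at 0.414 and 1.07 CPM in resting libraries 4 and 5 and 5.52 and 2.83 CPM in tetramer libraries 4 and 5. It rose by 2.46 ± 0.78 on the log2 scale (adjusted p = 0.0213), but was not called by DESeq2 or without resting library 4 or either tetramer library.

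The other members that rose were Zfp324, Zfp526, Zfp771, Zfp958, Zfp213, Zfp568 and Zfp664. Zfp324 was at 2.49 and 4.06 CPM in resting libraries 4 and 5 and 13.5 and 13.4 CPM in tetramer libraries 4 and 5, a 4.08-fold rise (edgeR adjusted p = 0.0163) that was not called without either tetramer library. Zfp771 was at 1.86 and 5.98 CPM in resting libraries 4 and 5 and 21.3 and 10.3 CPM in tetramer libraries 4 and 5, a call lost without resting library 4 or tetramer library 4. Zfp213 was at 7.25 and 5.77 CPM in resting libraries 4 and 5 and 20.3 and 20.6 CPM in tetramer libraries 4 and 5, where the libraries of a group were close together. Zfp568, a KRAB repressor known for silencing a placental transcript of Igf2, was at 7.04 and 4.27 CPM in resting libraries 4 and 5 and 15.3 and 18.4 CPM in tetramer libraries 4 and 5. It rose by 1.57 ± 0.56 on the log2 scale (adjusted p = 0.0392). The calls of Zfp526, Zfp958, Zfp213, Zfp568 and Zfp664 were lost with library totals, and also without resting library 5 or either tetramer library. Those of Zfp526 and Zfp958 were lost by DESeq2 and with no filter as well, and both genes met the member rule only through the tetramer pair.

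Zfp945, a KRAB-like member with 18 finger matches, had the largest fall. It was at 60.3 and 20.9 CPM in resting libraries 4 and 5 and 3.48 and 4.45 CPM in tetramer libraries 4 and 5. Resting library 4 stood well above resting library 5, yet both were above both tetramer libraries. The fall was 10.2-fold (log2 fold change -3.35 ± 0.57, edgeR adjusted p = 0.000107, range -3.89 to -2.38 with single libraries left out). Zfp174, a SCAN-domain factor with no KRAB-like stretch, was at 14.7 and 32.3 CPM in resting libraries 4 and 5 and 2.66 and 3.03 CPM in tetramer libraries 4 and 5. Here resting library 5 was the higher one, and the groups again did not overlap. The fall was 8.18-fold (-3.03 ± 0.60 on the log2 scale, adjusted p = 0.00056).

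Zfp512 and Zfp362 fell at higher counts. Zfp512 was at 113 and 45.7 CPM in resting libraries 4 and 5 and 12.1 and 22.9 CPM in tetramer libraries 4 and 5, a 4.54-fold fall (edgeR adjusted p = 0.00129) that ranged from -2.71 to -1.37 on the log2 scale with single libraries left out. Zfp362, a relative of the transcription factor Zfp384, was at 215 and 148 CPM in resting libraries 4 and 5 and 46.4 and 50.2 CPM in tetramer libraries 4 and 5. Its tetramer libraries were close together and far below both resting ones (-1.91 ± 0.38 on the log2 scale, adjusted p = 0.000586). Zfp945, Zfp174, Zfp512 and Zfp362 were the members called lower in every alternative tried. Zfp384 itself had 2.64 ± 0.504 and 4.99 ± 0.184 CPM (SD, n = 2 each) in resting and stimulated cells and was not called.

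Zfp488, known from the maturation of oligodendrocytes, the myelin-forming cells of the brain, was the called member with the most reads. It was at 281 and 351 CPM in resting libraries 4 and 5 and 67.7 and 105 CPM in tetramer libraries 4 and 5. It fell 3.65-fold (-1.87 ± 0.38, edgeR adjusted p = 0.000756), a call lost without tetramer library 4 (adjusted p = 0.0512). Of the 50-base words of its transcript, 15% also stand in transcripts of another gene. Zfp740 was at 64.4 and 32.7 CPM in resting libraries 4 and 5 and 17.6 and 8.70 CPM in tetramer libraries 4 and 5, a call lost without resting library 4 or tetramer library 5. Zfp868 was at 19.9 and 16.9 CPM in resting libraries 4 and 5 and 5.12 and 4.25 CPM in tetramer libraries 4 and 5. Both its groups were tight and apart, but its call was lost without either tetramer library. Zfp438, which met the member rule only through the resting pair, was the lowest of the 10 largest falls in counts. It was at 4.76 and 3.42 CPM in resting libraries 4 and 5 and 0.818 and 0.809 CPM in tetramer libraries 4 and 5. Its call was lost by DESeq2 and without either tetramer library. Zfp963 and Zfp442 completed these 10, with log2 fold changes of -2.03 ± 0.64 and -2.02 ± 0.65, and 40.4% and 32.3% of their words shared with another gene. Their calls were lost without either tetramer library, and that of Zfp442 also without resting library 4.

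**Figure D2:**
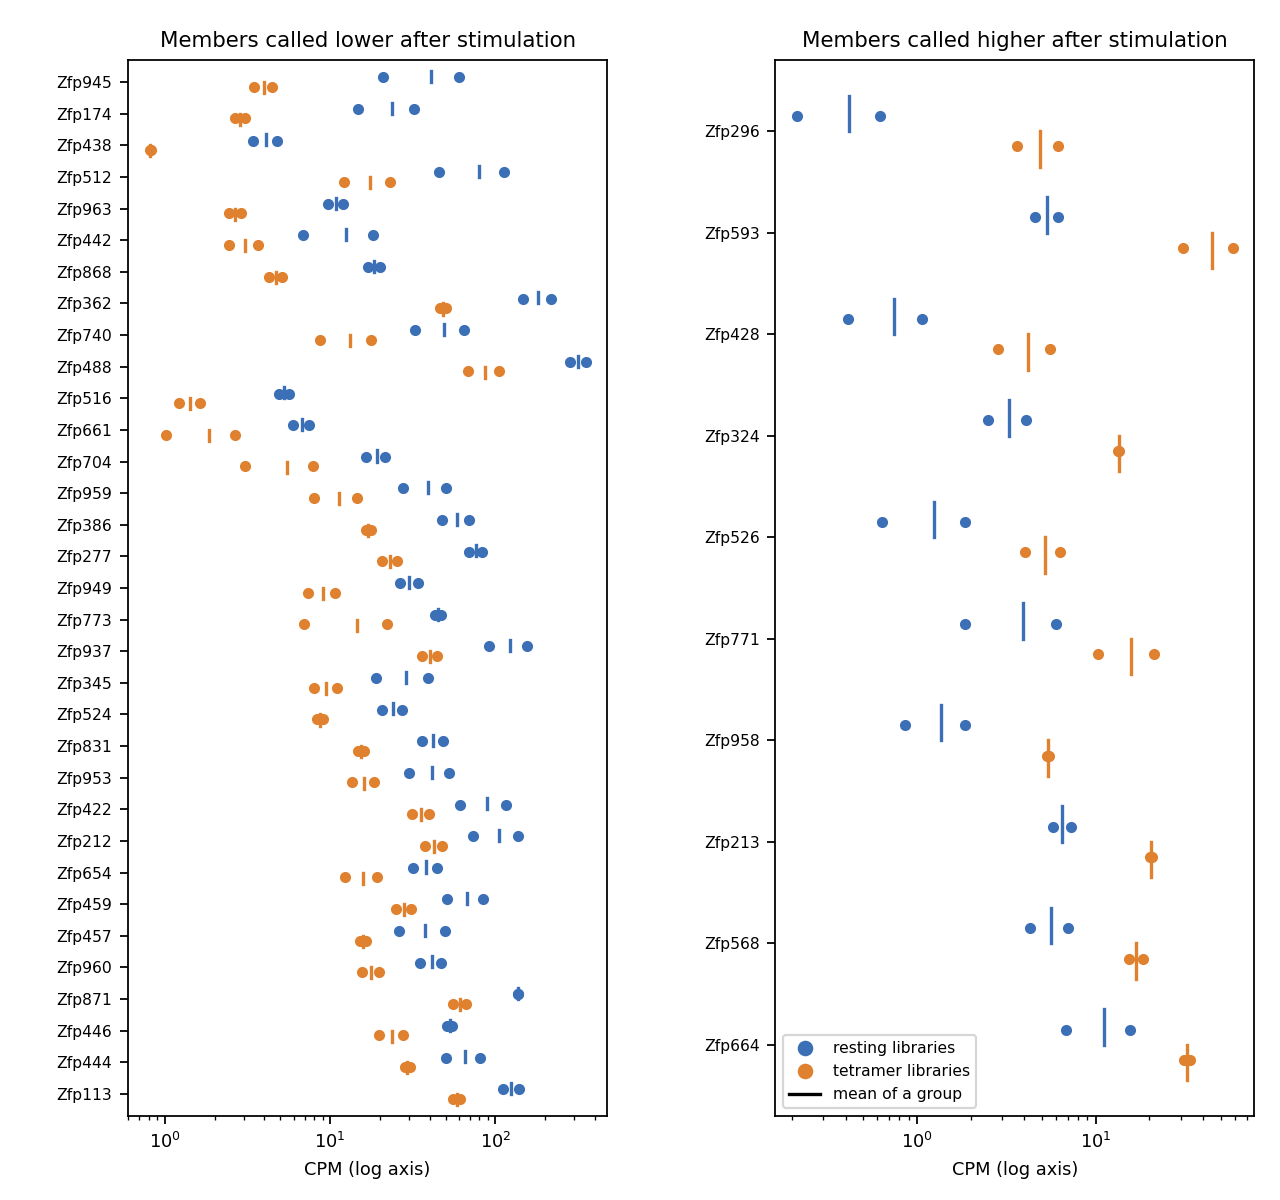
Level of every library (CPM, log axis) for the 33 members called lower and the 10 called higher, with blue points at rest, orange points after stimulation and a vertical bar at each group's mean. In all 43 members the groups do not overlap, as for Zfp593 with 5.38 ± 1.16 CPM at rest and 44.5 ± 19.5 CPM in tetramer libraries (SD, n = 2 each). The members shown were picked by their calls on the same libraries, so this is no separate support. Over all genes tested, both tetramer libraries lay above both resting ones in 31.6% and below them in 33.7%.

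The remaining falls were smaller. Among them Zfp386 was at 69.2 and 47.7 CPM in resting libraries 4 and 5 and 16.4 and 17.6 CPM in tetramer libraries 4 and 5, and Zfp277, a factor known to act with Polycomb proteins, was at 68.8 and 83.1 CPM in resting libraries 4 and 5 and 25.4 and 20.4 CPM in tetramer libraries 4 and 5. Both were called with an adjusted p of 0.00375 and 0.00316 in edgeR's test. Zfp113 had the smallest called fall, -1.10 ± 0.37 on the log2 scale. Of the 33 calls, 17 had resting library 4 above resting library 5, and 24 had tetramer library 4 below tetramer library 5. Of all 43 calls, 36 were lost without tetramer library 4 and 5 held in all 11 alternatives.

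Members with a described role were grouped by it. Of the 4 factors of ribosome assembly and ribosome quality control, only Zfp593 was called, where 26.4% of all genes were called in either direction. Zfp622, which helps the large subunit mature in the cytoplasm, was at 151 ± 15.9 and 126 ± 0.738 CPM in resting and stimulated cells (SD, n = 2 each here and below; edgeR adjusted p = 0.626). Zfp598, the ubiquitin ligase that marks collided ribosomes, was at 69.1 ± 8.95 and 72.6 ± 1.74 CPM (adjusted p = 0.909). Zfp330, a nucleolar protein, was at 22.8 ± 2.33 and 42 ± 8.43 CPM (adjusted p = 0.133), with 19.1% of its words shared with another gene. The groups overlapped for Zfp598, while both tetramer libraries were below both resting ones for Zfp622 and above them for Zfp330.

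None of 5 members that bind RNA or act in splicing or mitosis was called by edgeR, where 26.4% of all genes were. Zfp207, which binds the checkpoint protein Bub3, was at 89.3 and 66.7 CPM in resting libraries 4 and 5 and 123 and 107 CPM in tetramer libraries 4 and 5. Zfp326, which links splicing to RNA polymerase II, was at 80.6 and 69.4 CPM in resting libraries 4 and 5 and 98.2 and 128 CPM in tetramer libraries 4 and 5. Both tetramer libraries were above both resting ones in these genes, by less than the test could call (adjusted p = 0.271 and 0.239). Zfp346, which binds double-stranded RNA, Zfp106 and Zfp830 had log2 fold changes of -0.57 ± 0.44, -0.24 ± 0.39 and 0.08 ± 0.46.

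Of 32 listed sequence-specific factors and chromatin partners 24 were members, and 3 of these fell (12.5%) and none rose by edgeR's test, where 12.1% of all genes were lower and 14.3% higher. Zfp516, an activator known from brown fat, was at 5.59 and 4.91 CPM in resting libraries 4 and 5 and 1.64 and 1.21 CPM in tetramer libraries 4 and 5 (adjusted p = 0.0473). This call was lost with DESeq2's size factors and by its test, by limma-voom, with no filter and without resting library 4 or either tetramer library. Zfp516 met the member rule only through the resting pair. Zfp704 was at 16.6 and 21.6 CPM in resting libraries 4 and 5 and 3.07 and 7.89 CPM in tetramer libraries 4 and 5, and Zfp422, first described in tooth development, at 61.3 and 116 CPM in resting libraries 4 and 5 and 31.3 and 39.8 CPM in tetramer libraries 4 and 5. The call of Zfp704 was lost without tetramer library 4, and that of Zfp422 without resting library 5 or either tetramer library. The median of the list was -0.04.

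Several of these factors had high counts and passed no threshold. Zfp292 was at 514 and 312 CPM in resting libraries 4 and 5 and 180.5 and 243 CPM in tetramer libraries 4 and 5, below in both tetramer libraries (edgeR adjusted p = 0.0581). Zfp318, known for its part in the choice between IgM and IgD transcripts in B cells, was at 133 and 444 CPM in resting libraries 4 and 5 and 79.2 and 179.8 CPM in tetramer libraries 4 and 5. Its resting libraries lay so far apart that the groups overlapped (adjusted p = 0.0598). Zfp148, which binds GC-rich promoters, was at 178 ± 74.9 and 119 ± 17.7 CPM (adjusted p = 0.257). Zfp329 and Zfp706, on no role list, were the other members among the 8 with the highest mean level, with log2 fold changes of -0.37 ± 0.37 and 0.60 ± 0.36 (adjusted p = 0.482 and 0.224). Zfp335, required for the maturation of T cells leaving the thymus, was at 17.1 ± 2.15 and 17.1 ± 5.32 CPM, with a log2 fold change of -0.00 ± 0.50. Zfp143, an activator of small nuclear RNA and messenger RNA promoters, was at 12.3 ± 2.26 and 18.2 ± 4.89 CPM, with log2 fold change 0.57 ± 0.51. Zfp410, known as a dedicated activator of the remodeller gene Chd4, was at 8.19 ± 1.01 and 10.8 ± 3.83 CPM and was not called.

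The remaining factors of this list were not called, and their log2 fold changes ran from -1.52 ± 0.65 for Zfp219 to 1.39 ± 0.74 for Zfp367. Zfp219 was at 21.5 and 5.34 CPM in resting libraries 4 and 5 and 5.32 and 4.05 CPM in tetramer libraries 4 and 5, with resting library 4 far above the others. Zfp367 was at 0.622 and 2.78 CPM in resting libraries 4 and 5 and 5.73 and 3.24 CPM in tetramer libraries 4 and 5. The partners of ZMYND8, Zfp592 and Zfp687, had log2 fold changes of -0.85 ± 0.37 and 0.54 ± 0.60. Zfp644, which recruits the methyltransferases Ehmt1 and Ehmt2, had -0.27 ± 0.46, and the SUMO ligase Zfp451 had 0.53 ± 0.50. Zfp281, Zfp217, Zfp703, Zfp652, Zfp467, Zfp276, Zfp609 and Zfp827 lay between -0.77 and 0.70.

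**Figure D3:**
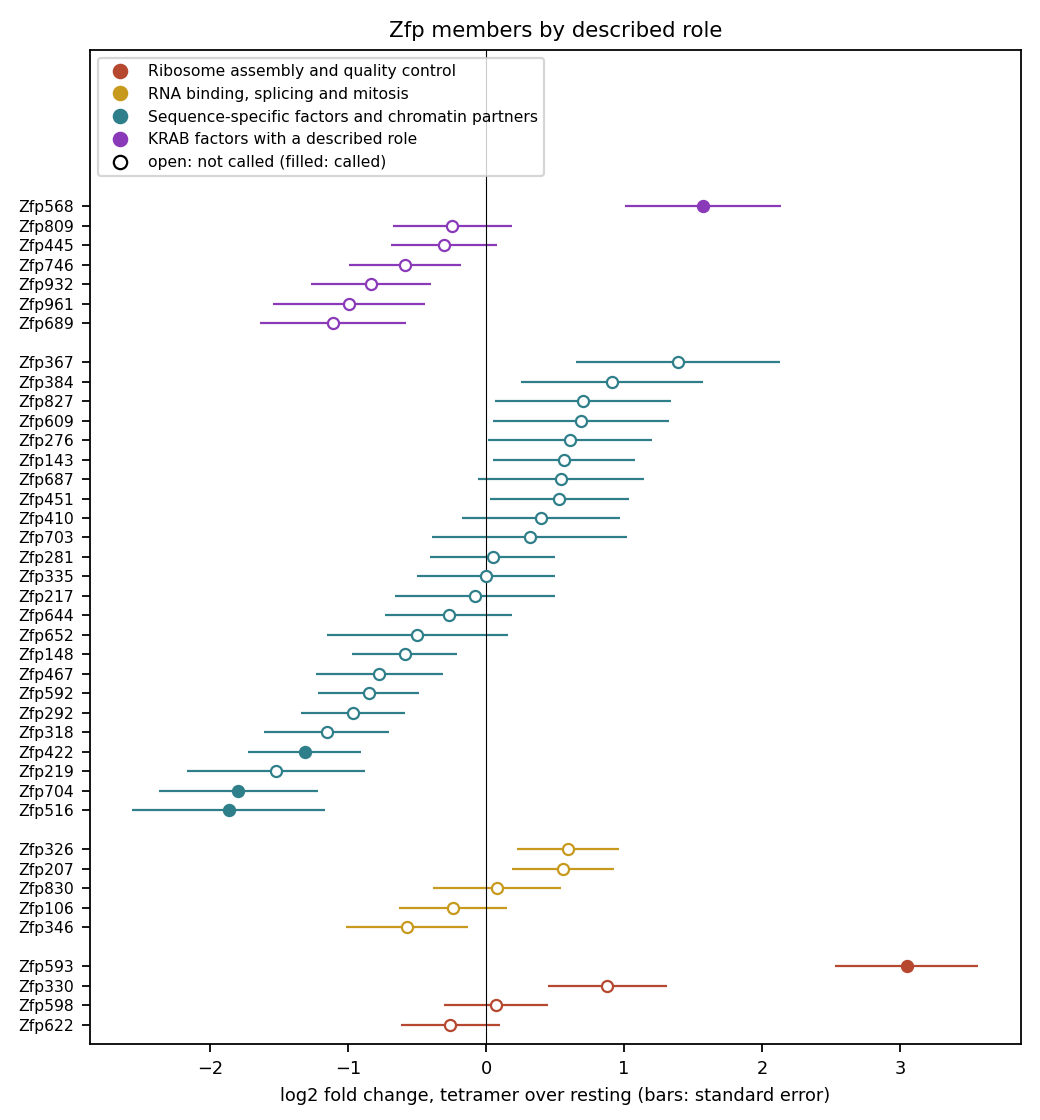
Log2 fold change (tetramer over resting, with standard error) of the members with a described role, by role, with filled points for called members and open points for the others. Zfp593 lies at 3.04 and Zfp568 at 1.57, while Zfp516, Zfp704 and Zfp422 are the called members below 0.

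Of 8 listed KRAB factors with a described role in silencing or repression 7 were members, of which 1 rose, Zfp568, and none fell by edgeR's test, where 14.3% of all genes were higher and 12.1% lower. The median was -0.59 against -0.06 for all genes, and 6 of the 7 had a negative fold change. Zfp809, which recognises the primer binding site of murine retroviruses, was at 42.3 and 38 CPM in resting libraries 4 and 5 and 25 and 42.9 CPM in tetramer libraries 4 and 5, so that the groups overlapped (adjusted p = 0.71). Zfp445, which helps keep imprinted marks, was at 98.6 and 69.7 CPM in resting libraries 4 and 5 and 58.7 and 77.5 CPM in tetramer libraries 4 and 5, also overlapping (adjusted p = 0.584). Zfp932, a repressor of endogenous retroviruses, was at 65.5 and 41 CPM in resting libraries 4 and 5 and 38.3 and 21.6 CPM in tetramer libraries 4 and 5 (adjusted p = 0.158), with 55.5% of its words shared with another gene. Zfp689 and Zfp961 had log2 fold changes of -1.11 ± 0.53 and -0.99 ± 0.55, with both tetramer libraries below both resting ones. Zfp746, which represses the coactivator gene Ppargc1a, had -0.59 ± 0.40, and its translation held no match to the KRAB-like patterns used here.

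The proteins through which KRAB factors act were listed as well. Of 29 listed cofactors, all tested, 6 rose and 3 fell by edgeR's test, against 14.3% higher and 12.1% lower of all genes, and 20 were called in neither direction. The median log2 fold change was 0.56, with a positive sign in 22, against 5428 of all 11312 genes. Trim28, the corepressor bound by KRAB, was at 93.6 and 98.7 CPM in resting libraries 4 and 5 and 175 and 113 CPM in tetramer libraries 4 and 5 (adjusted p = 0.248). Setdb1, which places the repressive mark, was at 4.76 and 1.92 CPM in resting libraries 4 and 5 and 6.14 and 5.66 CPM in tetramer libraries 4 and 5 (adjusted p = 0.383). Both had positive fold changes that passed no threshold. Without tetramer library 4, 1 cofactor rose and 0 fell, and with library totals 2 rose.

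Uhrf1, which brings the maintenance DNA methyltransferase Dnmt1 to newly copied DNA, had the largest rise of the list. It was at 2.28 and 9.40 CPM in resting libraries 4 and 5 and 150.0 and 36.2 CPM in tetramer libraries 4 and 5, far apart between the tetramer libraries but above both resting libraries in each (log2 fold change 3.99 ± 0.61, edgeR adjusted p = 2.8e-05). Without single libraries its log2 fold change ranged from 2.65 to 5.36. Rbbp7, a histone-binding subunit of the NuRD and other complexes, was at 102 and 98.9 CPM in resting libraries 4 and 5 and 330.5 and 261 CPM in tetramer libraries 4 and 5 (1.56 ± 0.37, adjusted p = 0.00287), a call lost without tetramer library 4. Gatad2b, another NuRD subunit, rose by 1.51 ± 0.55 (adjusted p = 0.0399). Morc3, an ATPase that acts in retroelement silencing, fell by 1.59 on the log2 scale, from 43.8 ± 27.5 CPM to 14.5 ± 0.889 CPM (adjusted p = 0.0167). The call of Gatad2b was lost with library totals, and the calls of both were lost without resting library 4 or either tetramer library. Chd4 and Chd3, the alternative remodellers of NuRD, were named after their values were seen. Chd4 was at 161 and 133 CPM in resting libraries 4 and 5 and 276 and 297 CPM in tetramer libraries 4 and 5 (adjusted p = 0.0486), a call lost in 7 of 11 alternatives. Chd3 was at 763 and 636 CPM in resting libraries 4 and 5 and 216 and 370.4 CPM in tetramer libraries 4 and 5 (adjusted p = 0.0163), a call lost without resting library 4 or tetramer library 4.

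Members that lie near each other in the genome were described by run. Chaining members with at most 5 other protein-coding genes between them gave 20 runs of 3 or more, which held 101 members, 100 of them tested. In these runs 18 members fell (18%) and 3 rose, and of the 115 members outside them 15 fell (13.0%) and 7 rose, where 12.1% of all genes were lower and 14.3% higher. Whether neighbours moved together was not tested. The median fold change was negative in 17 runs and positive in 3. Every tested member had a negative fold change in 4 runs, and 5 runs had no called member. The largest run, of 11 members including Zfp457, Zfp459 and Zfp953, had 3 lower and a median of -0.50.

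The run with the lowest median, -1.61, held Zfp120, Zfp345, Zfp442 and Zfp937, of which the last 3 were called lower. Zfp937 was at 91.2 and 154 CPM in resting libraries 4 and 5 and 35.8 and 44.5 CPM in tetramer libraries 4 and 5 (edgeR adjusted p = 0.0038). Zfp345 was at 18.9 and 38.9 CPM in resting libraries 4 and 5 and 7.98 and 10.9 CPM in tetramer libraries 4 and 5 (adjusted p = 0.0225), and Zfp442 at 18 and 6.84 CPM in resting libraries 4 and 5 and 2.46 and 3.64 CPM in tetramer libraries 4 and 5 (adjusted p = 0.0234). Zfp120 was at 232 and 155 CPM in resting libraries 4 and 5 and 77.6 and 125 CPM in tetramer libraries 4 and 5, with both tetramer libraries below both resting ones, and was not called (adjusted p = 0.0683). Shared words made up 29.4%, 29.8% and 32.3% of the transcripts of the 3 called members and 0.956% of that of Zfp120. The call of Zfp937 was lost without tetramer library 4, and those of Zfp345 and Zfp442 without either tetramer library and 1 resting library. How the authors counted reads that fit several genes is not given, so the levels of the 3 are uncertain.

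**Figure D4:**
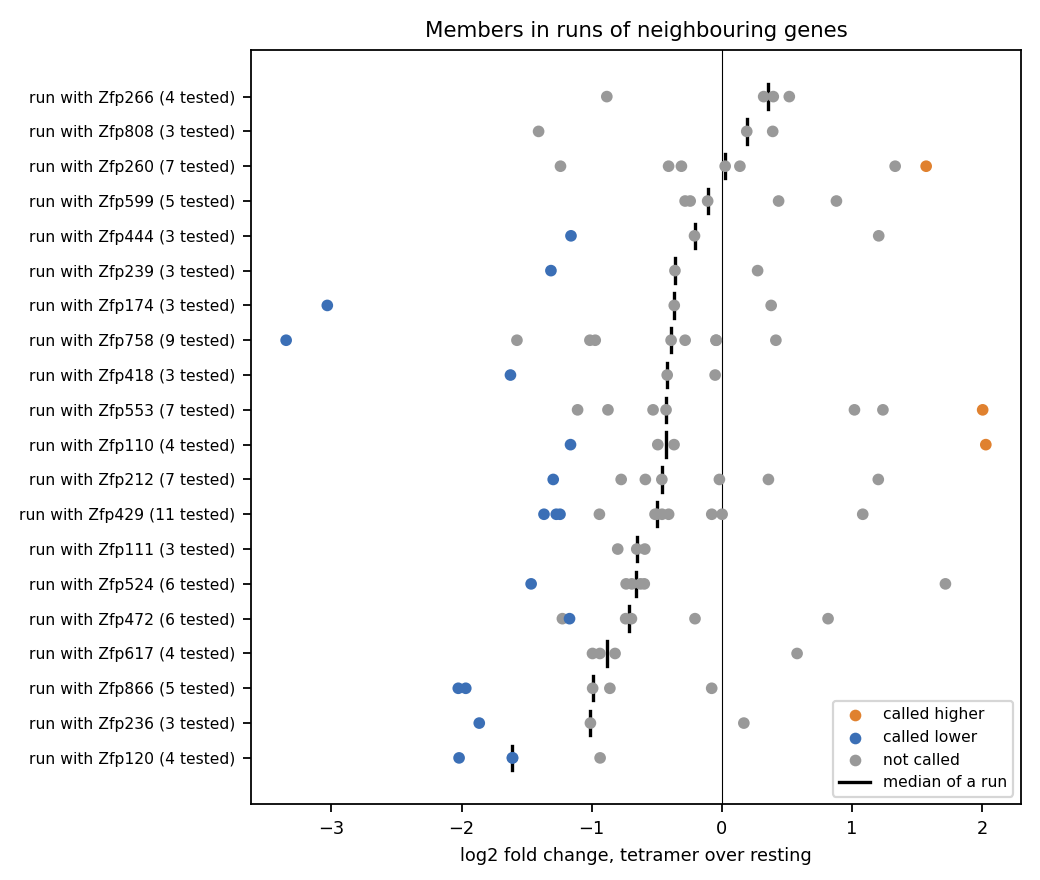
Change on the log2 scale of every tested member in the 20 runs of neighbouring members, each run labelled by its first member by symbol and ordered by its median (black bar), with called members in colour. The run with Zfp120 has the lowest median, -1.61, and the run with Zfp110 is the 1 run with calls in both directions.

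Large shares of sequence in common with another gene were limited to a minority of members. The share of 50-base words of a member's transcript that also stand in another gene's transcripts had a median of 0.101%, and 32 members had 10% or more. Of these 32, 9 were called lower (28.1%) and 0 higher by edgeR, and their median was -0.75. Of the 182 tested members below 10%, 24 were lower (13.2%) and 10 higher, with a median of -0.37. Over all genes, 12.1% were lower and 14.3% higher. Zfp960 had 82.7% and Zfp524 51.7% of their words in another gene, and both were called lower, with log2 fold changes of -1.22 ± 0.45 and -1.47 ± 0.51.

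Few members depended on the limit of the rule. All 4 libraries had at least 10 counts in 183 members. In 4 members only the resting pair reached 10 counts and in 6 only the tetramer pair did, so that these entered through the group where they were high. Of the former Zfp438 and Zfp516 were called lower, and of the latter Zfp296, Zfp428, Zfp526 and Zfp958 were called higher. Just inside the limit were Zfp101, with 23 and 10 counts at rest and 7 and 7 after stimulation, and Zfp418, with 10 and 3 at rest and 10 and 6 after stimulation. Zfp637 (11 and 5 at rest, 12 and 8 after) and Zfp369 (7 and 11, 8 and 26) were also just inside. Just outside were Zfp763, with 24 and 9 counts at rest and 4 and 4 after stimulation, and Zfp563, with 6 and 23 at rest and 9 and 8 after stimulation. Zfp395 (8 and 23, 8 and 6) and Zfp536 (2 and 13, 4 and 9) were outside as well.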

How the data were processed

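The values are raw counts of reads for each gene, deposited as 1 table that the authors made from poly(A)-enriched RNA amplified with 23 cycles of PCR, per the labels' protocols. Bowtie2, DESeq2 and mm9 are named in the submitters' processing notes. The counting tool, its strand setting and its handling of multi-mapping reads were not given in the sources used here. No count in the table is below 1, and 1 row with a cell that is not a number was left out. Genes without reads in some library, Zfp genes included, may therefore be missing from it. Columns carry the numbers 4 and 5, not the replicate numbers of the titles, so they were matched to groups only. Within each group the counts differed by more than sampling noise (chi-square 30.9 and 28.0 times its degrees of freedom), so each library counted as 1 sample.

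The test was edgeR's, version 4.0.16 under R 4.3.3 (quasi-likelihood F test, default expression filter, TMM, Benjamini-Hochberg adjustment over 11312 genes), after a test on simulated data. DESeq2 1.42.0, limma 3.58.1 (voom), other scalings and filters, and fits without each library were alternatives. The fit leaves 2 residual degrees of freedom. The members and lists were chosen with earlier results of these data known. The planned protein features came from translated GENCODE M21 transcripts, since no RefSeq protein table was used here. Gene order came from RefSeq's GRCm38.p6, where 214 members matched by symbol and 2 by an older one.

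Named were the 10 largest called changes in each direction without overlap between groups, the 8 members with the highest mean CPM, members of the role lists, members nearest the rule's limit, and Trim28, Setdb1 and the 4 largest called changes of the cofactor list. Others were chosen after their values were seen.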

Additional observations from a re-analysis of the deposited data

How the results depend on the processing

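With 2 libraries a group and low counts in many members, many calls were lost when single libraries were left out, most often tetramer library 4. Whether its values or the smaller number of libraries cost the calls was not tested. Leaving out each library in turn gave 1 to 14 members higher and 6 to 34 lower, with a median log2 fold change of -0.54 to -0.22. It gave 0 to 7 KRAB-like members higher and 1 to 17 lower, 1 to 7 of the others higher and 5 to 18 lower, and 1 to 5 cofactors higher and 0 to 2 lower. In fits without 1 library the remaining library of a group is assumed to vary like the other group. Over all genes, too, fewer calls were made without either tetramer library, with the shares given above. With library totals 5 members were higher and 61 lower (median -0.70), of which 1 and 33 were KRAB-like and 4 and 28 were not, and 2 cofactors were higher. Of all genes, 10.5% were then higher and 19.9% lower. Other scalings, filters and tools kept these counts within 1.5 times. With the column number as a replicate block 11 members were higher and 38 lower, including all 43 calls. The deviations of libraries with the same number correlated at 0.05. With 2 libraries a group this is 1 correlation, which cannot show whether libraries with the same number share a source.

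Among uncalled members the sign of the log2 fold change turned in some settings; the cause was not tested. With single libraries left out it ran from -0.57 to 0.73 (Zfp217), -0.33 to 0.62 (Zfp281), -0.34 to 0.29 (Zfp335), -0.00093 to 0.73 (Zfp410), -0.040 to 0.23 (Zfp598), -0.72 to 0.47 (Zfp644), -0.55 to 1.45 (Zfp703), -0.68 to 0.11 (Zfp809) and -0.12 to 0.28 (Zfp830). Without tetramer library 4 it was -0.10 for Zfp281, and without tetramer library 5 0.06 for Zfp217. With library totals it was -0.27 (Zfp281), -0.22 (Zfp598) and -0.21 (Zfp830). For Zfp217 it was 0.049 by limma-voom and 0.032 with the replicate block, and for Zfp335 0.021 with DESeq2's size factors, 0.021 by its test, 0.00045 with no filter and 0.15 without resting library 4. Without resting library 4 Zfp703 was at -0.29, and without tetramer library 4 Zfp644 was at 0.08.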
